A study of Mus musculus with 48 samples.

Results

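Tlr4, the receptor for bacterial lipopolysaccharide, was described in microglial segments of mouse brain together with its co-receptors Cd14 and Ly96, its adaptors Myd88, Tirap, Ticam1 and Ticam2, the kinases Irak1 and Irak4 and the ubiquitin ligase Traf6. These 10 genes were chosen by symbol from the 19962 targets of the deposited table, and all 10 were present. The assay was GeoMx digital spatial profiling, in which tags are cleaved by light from probes bound to RNA in a small tissue area and then counted by sequencing. The sections were frozen slices of brain perfused with paraformaldehyde. Segments were picked by staining for TMEM119, a microglial protein, or GFAP, an astrocyte protein.

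By their headings, 6 columns of the table were WT, another 5 were 5xFAD and the last 5 were 5xFAD-LynKO. WT stands for wild-type mice. 5xFAD is a transgenic line whose transgenes are under the neuronal Thy1 promoter and which deposits amyloid, so the transgenes are driven in neurons and not in microglia. 5xFAD-LynKO is the same line crossed with a knockout of Lyn, a Src-family kinase of myeloid cells. The columns headed 5xFAD-LynKO therefore share the amyloid transgene with those headed 5xFAD, and no column carries the Lyn knockout alone. No source used here gives the Lyn allele, the age or the sex of the animals, and a group named APP was not analysed here. Genotype came only from the column headings, and it is the series' design text from which the values were read as those of TMEM119-positive segments. No source ties a column to a titled region or a region to an animal, so columns of a genotype may come from the same slice. Each p-value below measures the spread between columns and is too small if columns share an animal.

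Lipopolysaccharide is handed by CD14 to the complex of TLR4 with MD-2, the product of Ly96. From the cell surface TLR4 signals through TIRAP and MYD88 to the IRAK kinases and TRAF6, which leads to NF-kappa-B and MAP kinase activity and to inflammatory cytokines such as TNF. From endosomes it signals through TRAM (Ticam2) and TRIF (Ticam1) to TBK1, IRF3 and type I interferon. In brain, microglia are the best known site of this receptor complex, and several proteins released from damaged tissue have been described as its ligands.

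Levels are given as the deposited signal divided by the median of its column. The division matters, because each genotype had its own deposited median, the same in all its columns, at 86.7, 159 and 196 in the order WT, 5xFAD and 5xFAD-LynKO. Columns held 1194249 to 5793534 implied probe counts in all, and the 10 genes had between 22 and 425 counts each in a column. The negative probe, which matches no mouse transcript and measures background, lay at 0.859 to 0.968 of the column median. A target was taken as above background when 5 or more columns showed it at over 1.5 times that probe. Among all targets, 16.85% were above background by this rule.

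Of the 10 genes, 1 was above background, namely Traf6, which is 10% of them. Only Tlr4, Ticam1 and Traf6 had a mean ratio to the negative probe above 1 over the 16 columns, that is 3 of 10, where 63.7% of all targets did. Most of this receptor complex was thus read at the level of the background probe, and how far a difference at that level follows transcript is not known.

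**Figure D1:**
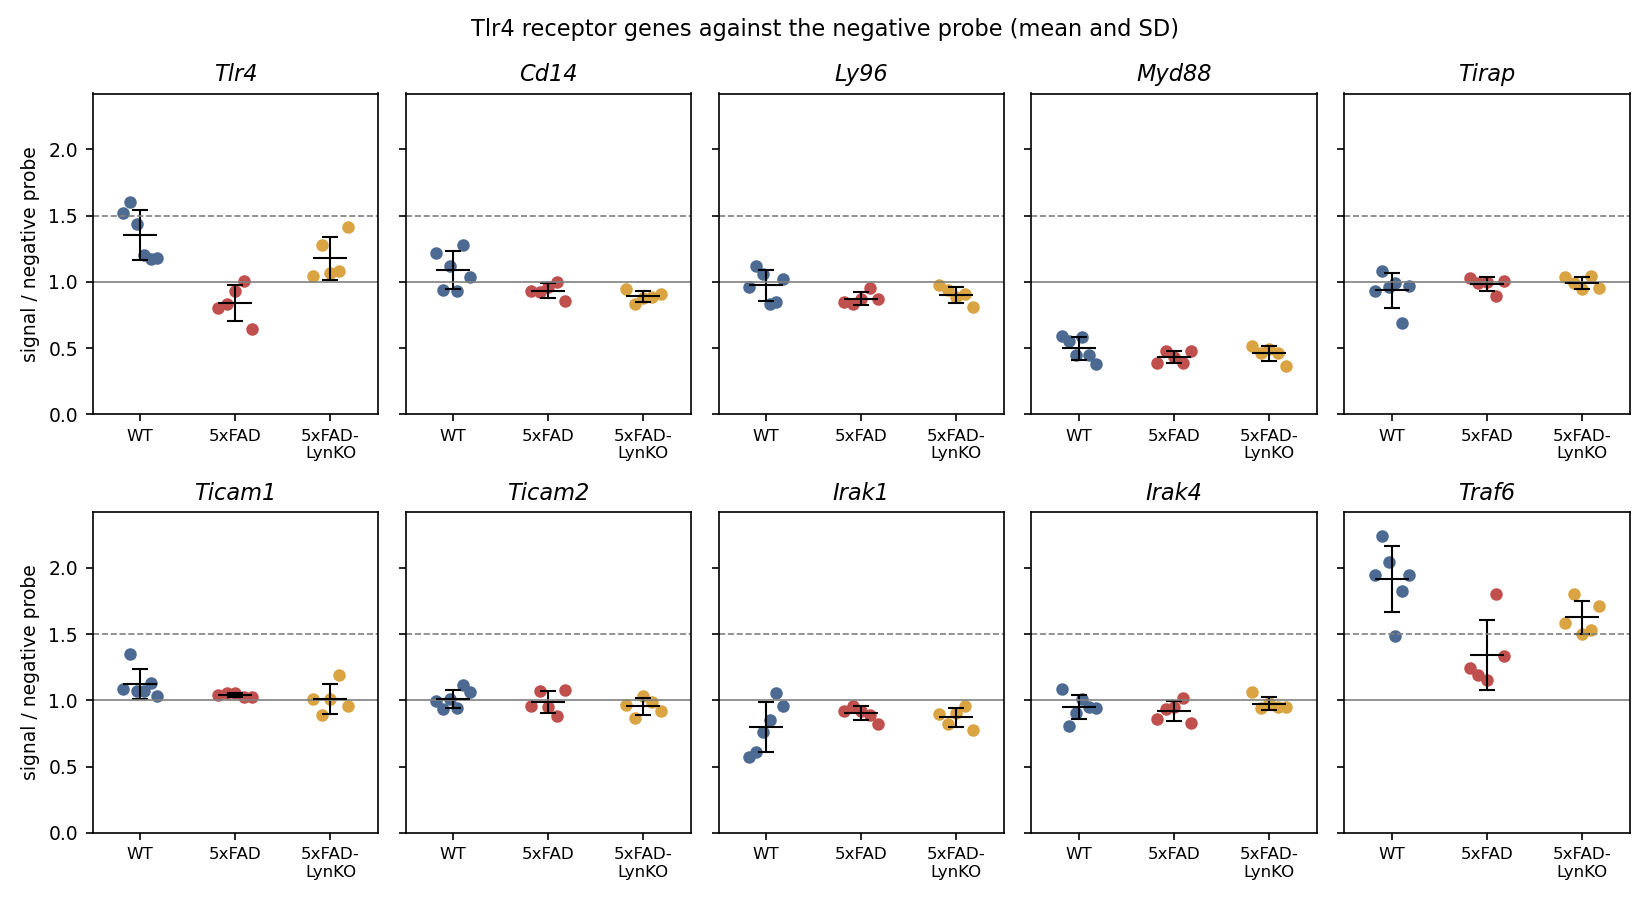
Signal of each of the 10 genes divided by the negative probe of the same column (vertical axis, a ratio), 1 point for each column, with the mean and SD of each genotype in black. The solid line marks the negative probe and the dashed line 1.5 times it. Traf6 passed the dashed line in 11 of 16 columns and Tlr4 in 2, and Myd88 stayed below the solid line in all 16.

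The receptor itself was lower in the columns headed 5xFAD. Tlr4 signal under WT ran from 1.055 over a median of 1.19 to 1.38 times the column median. Under 5xFAD the 5 columns stood at 0.766, 0.7795, 0.889, 0.9375 and 0.614. Under 5xFAD-LynKO they stood at 1.01, 1.17, 1.015, 1.04 and 1.29. Every 5xFAD column lay below every column of the other genotypes, and the WT and 5xFAD-LynKO columns overlapped. Within WT, columns 1, 2 and 3 (1.29 to 1.38) lay apart from columns 4, 5 and 6 (1.055 to 1.09).

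Tlr4 averaged 1.21 ± 0.15 in the WT columns (SD, n = 6). It averaged 0.797 ± 0.126 in the 5xFAD columns and 1.11 ± 0.12 in the 5xFAD-LynKO columns (SD, n = 5 each). Tlr4 fell in 5xFAD against WT by 0.60 on the log2 scale (95% interval -0.81 to -0.39), and its limma p adjusted over all targets was 0.00122. That is a 1.52-fold lower level relative to the column median. Without the division by the column median the sign turned to 0.27, on a scale where the median of all targets moved by 0.88. The mean ratio to the negative probe was 1.35 under WT and 0.843 under 5xFAD, so the WT signal lay above that probe in 6 of 6 columns and the 5xFAD signal in 1 of 5. In bulk segments like these, fewer cells of a type and less RNA per cell cannot be told apart.

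In 5xFAD-LynKO, Tlr4 stood 0.48 above 5xFAD on the log2 scale (SE 0.11), with a 95% interval of 0.26 to 0.69. The adjusted p was 0.11, so this difference did not pass the test. It passed with quantile normalization (adjusted p = 0.0178), with the negative probe subtracted (0.0193), with array weights (0.00895) and without 5xFAD column 4 (0.0303). The subtraction sets values at or below the negative probe to a fixed floor before scaling. The 5xFAD signal of Tlr4 lay above that probe in only 1 of 5 columns. Against WT, 5xFAD-LynKO was lower by a log2 difference of -0.12, with an interval of -0.33 to 0.08 and an adjusted p of 0.726. The comparisons of 5xFAD with WT and of 5xFAD-LynKO with 5xFAD share the 5xFAD columns, so the opposite signs are not independent of each other.

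Tlr4 was the only gene of the 10 whose columns did not overlap between the genotypes in these 2 comparisons, and in 5xFAD-LynKO against WT all 10 genes overlapped. Over all targets, columns did not overlap in 5.04% for 5xFAD against WT, in 2.69% for 5xFAD-LynKO against 5xFAD and in 0.621% for 5xFAD-LynKO against WT.

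**Figure D2:**
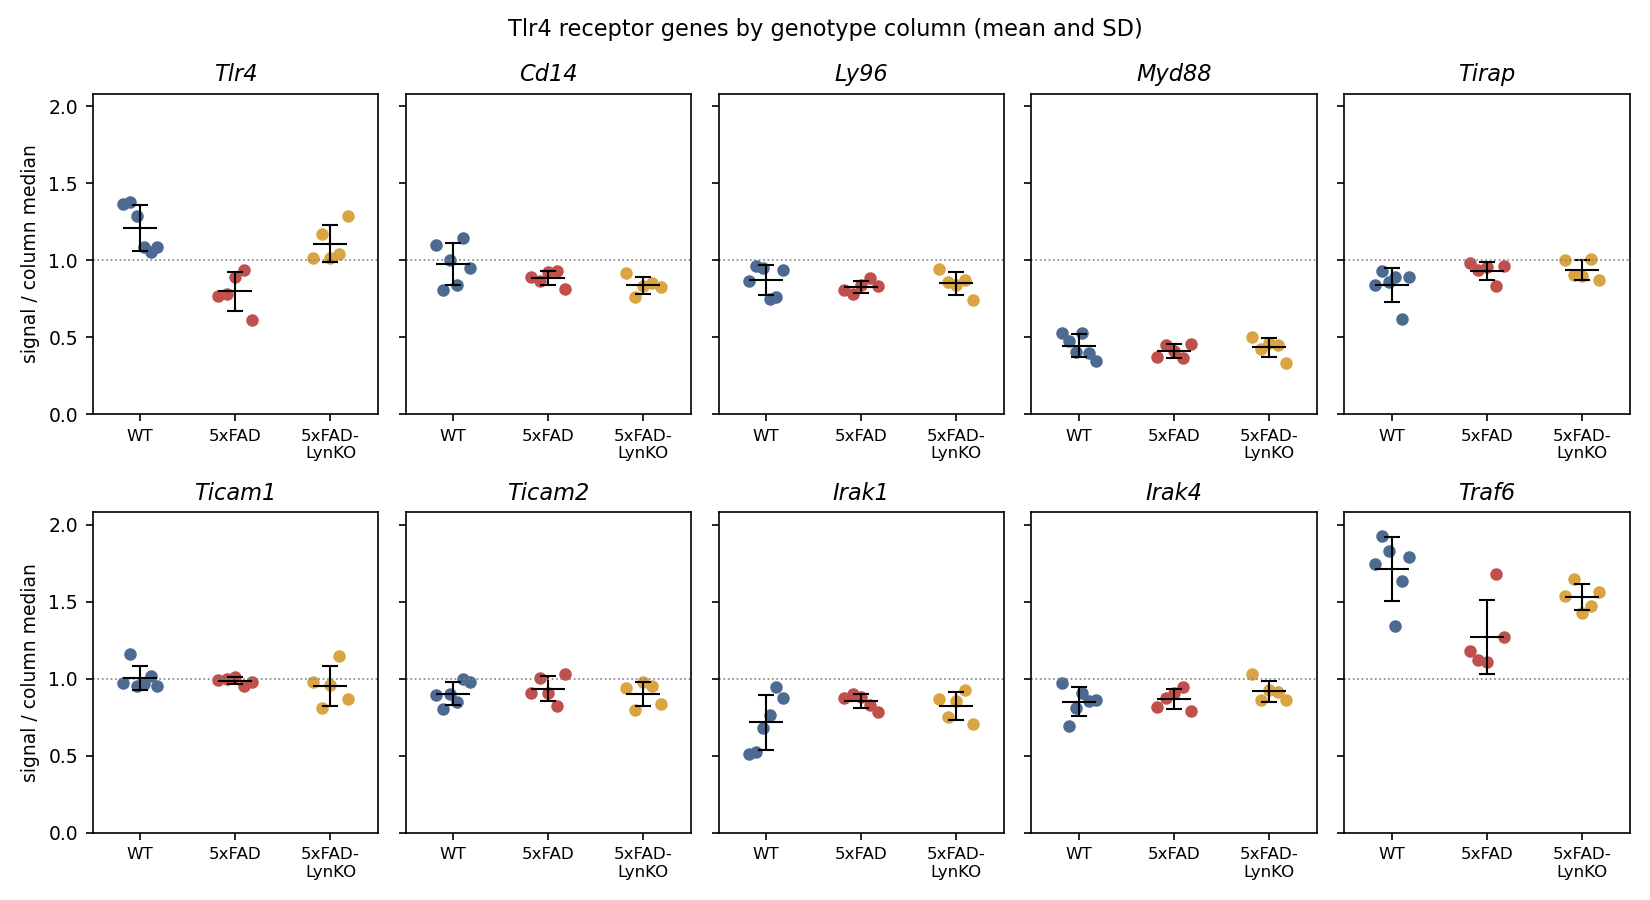
Signal divided by the column median (vertical axis, a ratio) for the 10 genes, 1 point for each column in the order of the heading number, with mean and SD in black. The 5 Tlr4 points under 5xFAD (0.614 to 0.9375) lie below all points of the other genotypes, and the genotypes overlap for the other 9 genes. Without the division by the column median the Tlr4 difference between 5xFAD and WT has the opposite sign.

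The co-receptor genes did not pass the test in any comparison. With the negative probe subtracted, Cd14 passed as lower in 5xFAD against WT (adjusted p = 0.0478), and Cd14 and Ly96 passed as lower in 5xFAD-LynKO against WT (0.00835 each). Both genes lay below that probe in every 5xFAD and 5xFAD-LynKO column. They were thus at the fixed floor of that setting, and these calls depend on the floor and the column scaling. Cd14, which encodes the surface protein that delivers lipopolysaccharide, ran from 0.805 over a median of 0.9753 to 1.145 under WT. Its 5xFAD columns stood at 0.890, 0.867, 0.922, 0.932 and 0.8125, and its 5xFAD-LynKO columns at 0.917, 0.764, 0.833, 0.8495 and 0.829. The genotypes overlapped, with the highest value in a WT column and the lowest in 5xFAD-LynKO column 2. The log2 difference of Cd14 was -0.13 in 5xFAD against WT (interval -0.31 to 0.05, adjusted p = 0.34) and -0.20 in 5xFAD-LynKO against WT (interval -0.38 to -0.03, adjusted p = 0.522).

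Ly96, whose product MD-2 binds lipopolysaccharide beside TLR4, ran from 0.746 over a median of 0.902 to 0.963 under WT. The 5xFAD columns read 0.805, 0.7795, 0.837, 0.886 and 0.8295, and the 5xFAD-LynKO columns 0.942, 0.8605, 0.836, 0.871 and 0.740. All 3 genotypes overlapped. The log2 difference of Ly96 in 5xFAD against WT was -0.07 (interval -0.24 to 0.11, adjusted p = 0.622). Ly96 was above the negative probe in 3 of 6 WT columns and in none of the other 10 columns.

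The adaptors of the surface pathway also missed the threshold. Myd88, the adaptor shared by most Toll-like receptors, read 0.346 to 0.527 under WT with a median of 0.439. Its 5xFAD columns were 0.370, 0.451, 0.412, 0.364 and 0.4545, and its 5xFAD-LynKO columns were 0.5, 0.4225, 0.465, 0.446 and 0.336. The probe lay below the negative probe in 16 of 16 columns, at 0.368 to 0.587 times it, so no signal above background was read. The log2 difference in 5xFAD against WT was -0.12, with an interval of -0.47 to 0.23. With the negative probe subtracted, Myd88 was at the floor of that setting in all 16 columns. Its call there as lower in 5xFAD-LynKO against WT (limma adjusted p = 0.00835) thus reflects the column scaling and not Myd88 signal.

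Tirap, which bridges TLR4 and MYD88 at the membrane, ran from 0.618 over a median of 0.873 to 0.927 under WT. It stood at 0.9805, 0.933, 0.954, 0.8295 and 0.960 under 5xFAD, and at 1.00, 0.903, 0.896, 1.005 and 0.870 under 5xFAD-LynKO. WT column 5 was the low value, and the genotypes overlapped. The log2 differences of Tirap against WT were 0.16 for 5xFAD (adjusted p = 0.225) and 0.17 for 5xFAD-LynKO (adjusted p = 0.599).

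The endosomal adaptors did not pass the test either. Ticam1, which encodes TRIF, ran from 0.951 over a median of 0.9695 to 1.16 under WT. Its 5xFAD columns were 0.9935, 0.995, 1.01, 0.9545 and 0.977, and its 5xFAD-LynKO columns were 0.979, 0.810, 0.959, 1.145 and 0.870. The SD was smallest in the 5xFAD columns, at 0.0220, against 0.0796 for WT and 0.1275 for 5xFAD-LynKO. In 5xFAD against WT the log2 difference was -0.02, with an interval of -0.19 to 0.15 and an adjusted p of 0.886.

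Ticam2, which encodes the bridging adaptor TRAM, ran from 0.805 over a median of 0.897 to 1.00 under WT. It read 0.909, 1.005, 0.9085, 0.824 and 1.03 under 5xFAD, and 0.938, 0.795, 0.978, 0.952 and 0.836 under 5xFAD-LynKO. The log2 difference of Ticam2 in 5xFAD against WT was 0.05 (interval -0.12 to 0.22, adjusted p = 0.73).

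Neither kinase passed the test, and the Irak1 difference had the sign opposite to that of Tlr4. Irak1, a kinase that is recruited to MYD88 and then binds TRAF6, ran from 0.5135 over a median of 0.721 to 0.9455 under WT. Its 5xFAD columns were 0.877, 0.903, 0.882, 0.8295 and 0.784, and its 5xFAD-LynKO columns were 0.868, 0.752, 0.855, 0.925 and 0.7055. WT columns 1 and 2 were the lowest, at 0.5135 and 0.524, and the WT columns 5 and 6 lay among those of 5xFAD or above them. The log2 difference in 5xFAD against WT was 0.29 (interval 0.03 to 0.54), with an adjusted p of 0.114. Without WT column 5 it was 0.37, with an adjusted p of 0.0354. With the negative probe subtracted the sign turned, to -0.72 here (adjusted p = 0.208) and to -1.15 in 5xFAD-LynKO against WT (adjusted p = 0.0176). The Irak1 signal lay below the negative probe in 15 of 16 columns. The subtraction sets these to a fixed floor, so its signs rest largely on the column scaling.

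Irak4, the kinase that first joins MYD88, ran from 0.695 over a median of 0.859 to 0.973 under WT. Its 5xFAD columns read 0.818, 0.877, 0.9085, 0.949 and 0.790, and its 5xFAD-LynKO columns 1.03, 0.8605, 0.929, 0.914 and 0.863. These groups overlapped throughout. The log2 difference of Irak4 was 0.03 in 5xFAD against WT (adjusted p = 0.828) and 0.08 in 5xFAD-LynKO against 5xFAD (adjusted p = 0.8).

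The ligase at the end of the shared pathway fell with the receptor. Traf6, a ubiquitin ligase that passes the signal on to the TAK1 and IKK kinases, ran from 1.34 over a median of 1.77 to 1.93 under WT. Its 5xFAD columns were 1.18, 1.12, 1.105, 1.68 and 1.27, and its 5xFAD-LynKO columns were 1.53, 1.65, 1.42, 1.47 and 1.56. Of the 5xFAD columns, 4 lay below all WT columns, and column 4 lay among them. Traf6 averaged 1.71 ± 0.21 in the WT columns (SD, n = 6). It averaged 1.27 ± 0.24 in the 5xFAD columns and 1.53 ± 0.086 in the 5xFAD-LynKO columns (SD, n = 5 each).

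Traf6 fell in 5xFAD against WT by 0.43 on the log2 scale (SE 0.10, limma adjusted p = 0.00841), with an interval of -0.65 to -0.22. As for Tlr4, the sign turned without the division by the column median, to 0.44. The log2 difference of 5xFAD-LynKO from 5xFAD was 0.28 (interval 0.06 to 0.51), with an adjusted p of 0.304, and that from WT was -0.15 (adjusted p = 0.68). Against the negative probe the mean Traf6 ratio was 1.92, 1.34 and 1.63 in the order WT, 5xFAD and 5xFAD-LynKO, and it was above that probe in all 16 columns.

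**Figure D3:**
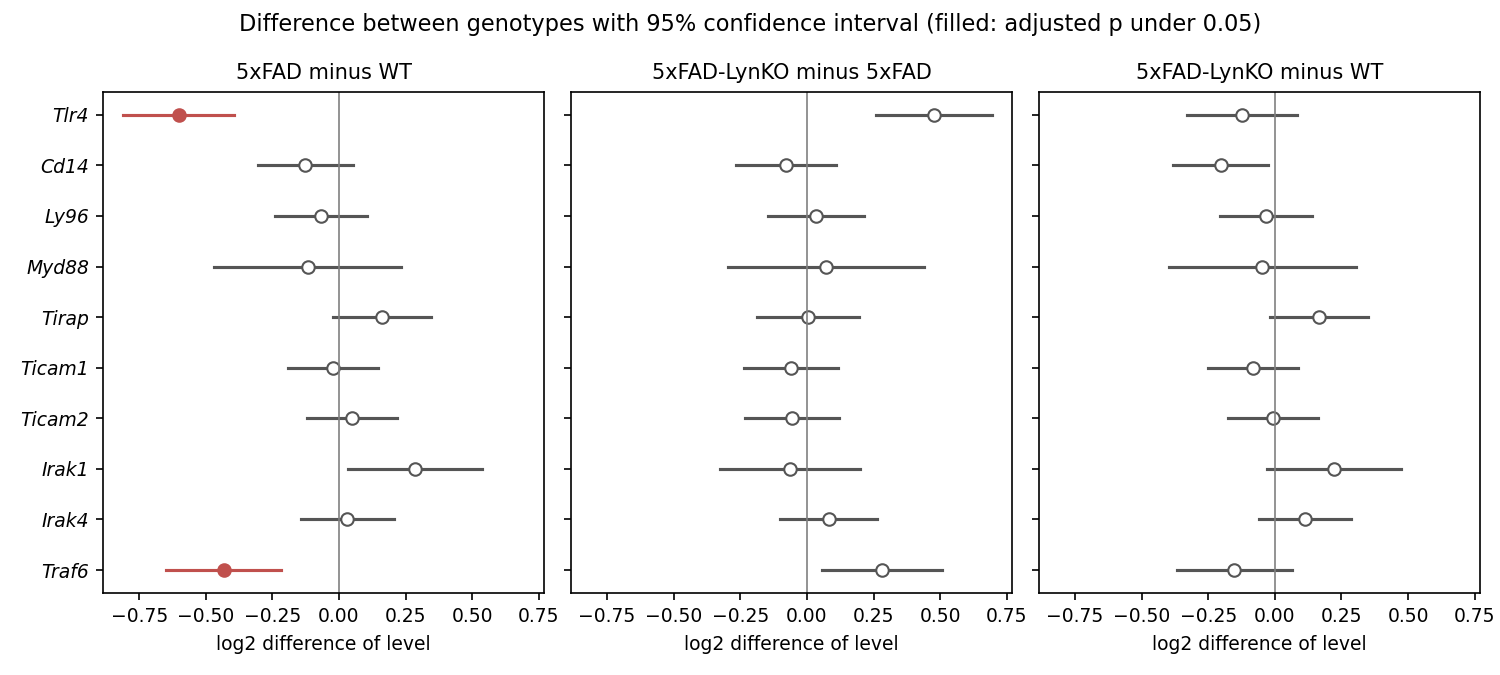
Log2 difference of the level relative to the column median (horizontal axis) for the 10 genes in the 3 comparisons, with 95% confidence intervals. Filled points passed an adjusted p of 0.05, which Tlr4 (-0.60) and Traf6 (-0.43) did in 5xFAD minus WT. Both of these signs turn without the division by the column median.

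Promoter sequence is shown for Traf6, the one of these genes above background, and for Irak1, whose levels ran most against those of Tlr4, a choice made after the values were seen. The sequences are the 250 bases before the first RefSeq start listed for each gene, from RefSeq on GRCm38.p6, and 6 of the 10 genes had an entry that was used. Capitals mark matches on either strand to GGGCGG (the GC box), GAGGAA (a core of sites for Ets factors such as PU.1, a myeloid factor) and TATAAA (the TATA box), and neighbouring matches run together. The Traf6 sequence is chr2:101678170-101678419 on the plus strand and the Irak1 sequence chrX:74023922-74024171 on the minus strand.
Traf6: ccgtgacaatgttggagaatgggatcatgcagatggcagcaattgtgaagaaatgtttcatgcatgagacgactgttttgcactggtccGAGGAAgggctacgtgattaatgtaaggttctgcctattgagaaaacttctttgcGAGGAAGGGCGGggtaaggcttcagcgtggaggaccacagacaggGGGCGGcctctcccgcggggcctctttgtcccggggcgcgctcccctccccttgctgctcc
Irak1: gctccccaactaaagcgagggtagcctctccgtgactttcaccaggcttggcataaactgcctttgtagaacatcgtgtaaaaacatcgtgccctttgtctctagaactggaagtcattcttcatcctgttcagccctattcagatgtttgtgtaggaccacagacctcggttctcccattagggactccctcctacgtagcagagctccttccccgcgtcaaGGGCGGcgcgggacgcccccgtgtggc
The Traf6 window held 2 matches to GGGCGG and 2 to GAGGAA, and the downstream GAGGAA ends where the upstream GC box begins. No motif overlapped another. The Irak1 window held 1 match to GGGCGG and none to GAGGAA. Neither window held TATAAA. Of 27025 windows of this length, 32.9% held GGGCGG, 23.1% GAGGAA and 13% TATAAA. A match is a run of letters and not evidence of binding.

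For 5xFAD against WT, 2 of the 10 genes passed the test, both lower, where 14.2% of the 19960 targets tested passed, 8.23% lower and 5.99% higher. A count of 2 in 10 is near that background and is not read as a result about the set. The count of 2839 called targets dropped to 1624, 1416 and 1396 without 5xFAD column 2, 3 or 5, and the higher share of calls, 42.1%, became 60% with scaling to the 75th percentile and 14.4% with scaling to the negative probe. Among targets above background, with Traf6, the share that was lower was 18.2%, and among the rest, with Tlr4, it was 6.21%. A target can meet the background rule through its WT columns alone, so the rule favours targets that are high in WT. This contrast is therefore not read as a result about either gene. The median log2 difference of the 10 genes was -0.04, against 0.01 over all targets.

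No gene of the 10 passed in 5xFAD-LynKO against 5xFAD, where limma called 0 targets (percent called 0) although 2255 had an unadjusted p under 0.05. None passed in 5xFAD-LynKO against WT, where 12 targets did (0.0601%, of which 0.0551% lower and 0.00501% higher). The median log2 difference of the 10 genes was 0.02 in the former comparison and -0.04 in the latter.

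Tlr4 and Traf6 were read beside the overall quality of each column. Between 2691 and 4762 targets passed 1.5 times the negative probe in a WT column. This number lay between 1374 and 2838 in the 5xFAD columns and between 894 and 3426 in the 5xFAD-LynKO columns. Both genes were highest in WT in column 2, which had 4762 such targets, and highest in 5xFAD in column 4, which had 2838. For Tlr4 the order did not hold in every column. WT column 5, with 3569, had the lowest WT level (1.055), and 5xFAD column 3, with only 1374, stood at 0.889. In 5xFAD-LynKO, Tlr4 was highest in column 5 and Traf6 in column 2, the columns with 3426 and 3359. With this number as a covariate, chosen after the data were seen, the log2 difference of Tlr4 in 5xFAD against WT was -0.41 (adjusted p = 0.16) and that of Traf6 was -0.27 (adjusted p = 0.361), and neither passed. In that fit 0 targets of all passed for 5xFAD against WT, while Tlr4 passed for 5xFAD-LynKO against 5xFAD (0.45, adjusted p = 0.0481).

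**Figure D4:**
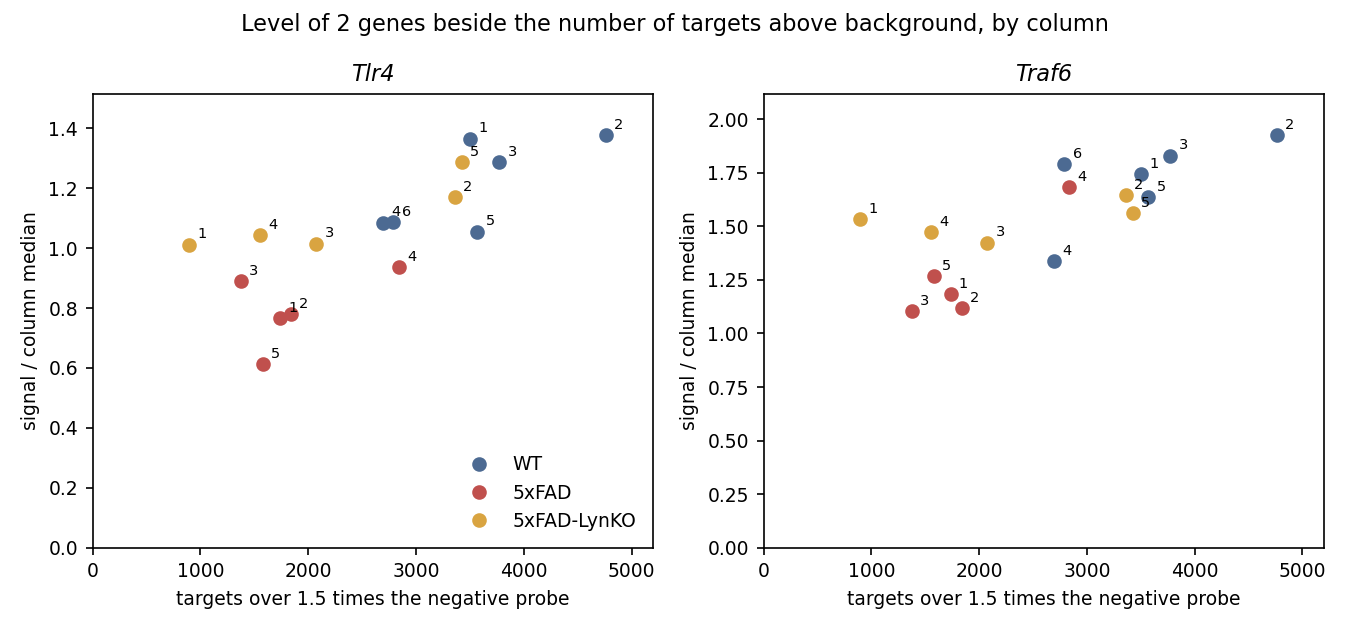
Level of Tlr4 and Traf6 relative to the column median (vertical axis, a ratio) against how many targets of the same column exceeded 1.5 times its negative probe (horizontal axis), with heading numbers beside the points. The highest Tlr4 and Traf6 points of WT and of 5xFAD are those of column 2 and column 4, which have the most targets above background in their genotype. The lowest Tlr4 point of WT is that of column 5, with 3569 such targets. The 5xFAD points of Tlr4 (0.614 to 0.9375) lie below all 5xFAD-LynKO points. The 5xFAD columns span 1374 to 2838 such targets and the 5xFAD-LynKO columns 894 to 3426, and no cause was tested.

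Microglial markers moved in the same comparison. Of the 9 microglial genes tested beside Tmem119, 5 fell in 5xFAD against WT, among them the complement genes C1qc, C1qa and C1qb and the cathepsin Ctss, and 3 fell in 5xFAD-LynKO against WT. Over all targets tested, 8.23% fell in the former comparison and 0.0551% in the latter. The summed level of the 10 microglial genes, in units of the column median, was 14.6 to 34.1 in the WT columns. It was 11.6 to 13.9 in those of 5xFAD and 11.1 to 12.3 in those of 5xFAD-LynKO. WT columns 1 and 3 held the high sums, 34.1 and 29.6. Without both, 3 microglial genes fell in 5xFAD against WT in place of 5, the log2 difference of Tlr4 was -0.53 (adjusted p = 0.0103) and that of Traf6 -0.40 (adjusted p = 0.0426). Mean Tlr4 was 0.797 under 5xFAD and 1.11 under 5xFAD-LynKO, and the median microglial sums were 12.4 and 11.9. With the mean microglial level as a covariate, also chosen after the data were seen, Tlr4 passed in 5xFAD against WT (-0.49, limma adjusted p = 0.0322). Traf6 did not (-0.38, adjusted p = 0.1). Every WT sum lay above every 5xFAD sum, so that fit cannot separate genotype from microglial level, and the cause was not tested. Tmem119, the marker used to pick segments, had mean signals of 0.969, 0.685 and 0.788 times the negative probe in the order WT, 5xFAD and 5xFAD-LynKO.

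Markers of other cells were also present. The summed level of 8 neuronal genes was 21.6 to 56.3, 16.7 to 35.9 and 15.0 to 41.9 in the order WT, 5xFAD and 5xFAD-LynKO, and that of 8 astrocyte genes was 20.6 to 29.6, 13.3 to 19.2 and 15.3 to 24.1. The sum of 7 oligodendrocyte genes was 10.5 to 39.5, 10.45 to 15.9 and 10.35 to 24.9. In 5xFAD against WT, Rbfox3 of the neuronal list, Glul of the astrocyte list and Cnp, Mag and Cldn11 of the oligodendrocyte list fell, where 8.23% of all targets tested did. With scaling to the 75th percentile no neuronal or oligodendrocyte gene passed (lowest adjusted p 0.0528 in each list), without WT columns 1 and 3 no astrocyte gene did (0.0911), and with either covariate none of the 3 lists had a call. The 6 endothelial genes (sums of 6.16 to 6.86 over all columns) had no call (1 rose with scaling to the 75th percentile). Of the 5 border macrophage and monocyte genes measured (sums of 4.29 to 5.08) Ccr2 fell, to a 5xFAD mean of 0.860, below the negative probe. That call was lost with scaling to the 75th percentile (lowest adjusted p of the list 0.0677), without WT columns 1 and 3 (0.0594) and with either covariate. The segments were thus a mixture, and the part of other cells in the Tlr4 and Traf6 differences was not tested.

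Lyn, the gene removed in the knockout, was read at 1.13 times the column median under 5xFAD-LynKO and at 1.09 under 5xFAD. The log2 difference was 0.06 with an adjusted p of 0.869. The signal was 1.21 and 1.15 times the negative probe, and the place of the probe relative to the deletion is not known here, so Lyn does not check the headings.

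Among the other Toll-like receptors, 2 of 11 fell in 5xFAD against WT and none rose, where 8.23% of all targets tested fell and 5.99% rose. Their median log2 difference was -0.23 against 0.01 over all targets. Tlr12, a mouse receptor for a profilin of protozoan parasites, fell by 0.53 on the log2 scale (adjusted p = 0.0031), from 1.04 ± 0.17 to 0.716 ± 0.086. Tlr1, a partner of TLR2 in sensing lipopeptides, fell by 0.29 (adjusted p = 0.0339). Under 5xFAD, 10 of these 11 receptors had a mean below the negative probe, Tlr12 and Tlr1 (0.842) among them. By the background rule 1 of the 11 was above background, so how far these falls follow transcript is not known. Tlr13, a sensor of bacterial ribosomal RNA, had the highest mean signal of this list and a log2 difference of 0.08 (adjusted p = 0.521). With scaling to the negative probe 6 of the 11 fell, with scaling to the 75th percentile, without WT columns 1 and 3 or with the microglial covariate 1 did, and with the covariate for targets above background 0 did. In 5xFAD-LynKO against 5xFAD none of the 11 passed, and their median was 0.18.

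Of the 10 genes for described TLR4 ligands and ligand carriers, 4 fell and 2 rose, beside 8.23% lower and 5.99% higher over all targets tested. Tnc (tenascin C), Hspd1 (a mitochondrial chaperone), Hmgb1 (a nuclear alarmin) and Bgn (biglycan, a matrix proteoglycan) fell by 0.38, 0.34, 0.32 and 0.29 on the log2 scale, with adjusted p from 0.00846 to 0.0202. Bgn averaged 0.840 times the column median under 5xFAD, below the negative probe. S100a9 and S100a8, the calprotectin subunits of neutrophils and activated myeloid cells, rose by 0.29 and 0.31 (adjusted p = 0.0242 and 0.0369). S100a9 reached 1.61 ± 0.13 times the column median under 5xFAD, and S100a8, at 0.844 ± 0.057, lay below the negative probe. Neither rise passed with scaling to the negative probe or without WT columns 1 and 3, where 4 and 2 of the list fell and none rose. Fga, a chain of fibrinogen, had the highest mean signal of those that did not pass and a log2 difference of -0.05.

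In the list of other lipopolysaccharide handling and receptor traffic, 2 of 10 fell and 1 rose, beside the same 8.23% and 5.99% over all targets tested. Trim30a, a ubiquitin ligase family member that restrains TLR signalling in mouse, and Unc93b1, which carries nucleic acid-sensing receptors to endosomes, fell by 0.32 and 0.31. Unc93b1 averaged 0.904 times the column median under WT and 0.723 under 5xFAD, the latter below the negative probe. Rnf216, a ubiquitin ligase also known as TRIAD3, rose by 0.25 (adjusted p = 0.0467). Hsp90b1, the chaperone that folds Toll-like receptors, had a log2 difference of -0.30 and did not pass (adjusted p = 0.0678). With scaling to the negative probe none of the list rose and 4 fell, and without WT columns 1 and 3 none rose and 1 fell.

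Downstream of the adaptors, the calls in 5xFAD against WT stand beside 8.23% lower and 5.99% higher over all targets tested. Counts near those shares are not read as a result about an arm. In the kinase, ubiquitin and NF-kappa-B arm 1 of 16 fell, Ikbkg, the regulatory subunit of the IKK complex, by 0.32 (adjusted p = 0.0132). Rel, an NF-kappa-B subunit with the highest mean signal of those that did not pass, differed by -0.08. In the TRIF and interferon arm 1 of 11 fell, Tbk1, the kinase that activates IRF3, by 0.45 (adjusted p = 0.00284), from 1.19 ± 0.11 to 0.869 ± 0.073. The 5xFAD mean of Tbk1 lay below the negative probe. Irf3 itself, with the highest mean signal of that list, had a log2 difference of 0.02. None of 11 genes of the MAP kinase and AP-1 arm passed, where Map2k4, a kinase with the highest mean signal of the list, differed by 0.13. None of 15 negative regulators measured did, where Otud7b, a deubiquitinase, differed by -0.10. With scaling to the negative probe 2, 2, 1 and 3 genes fell in these lists, in the order named. The kinase arm had no call with either covariate, and the TRIF arm none with the covariate for targets above background.

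Of the 11 Src-family kinases and inositol phosphatases 1 fell, near the 8.23% over all targets tested. It was Inpp5d, the phosphatase SHIP1 that opposes PI3-kinase signalling in myeloid cells, which fell by 0.37 (adjusted p = 0.0413). This call was lost with scaling to the 75th percentile (lowest adjusted p of the list 0.0671), without WT columns 1 and 3 (0.0752) and with either covariate. Inpp5d averaged 0.711 times the column median under 5xFAD, below the negative probe. Fyn, the Src-family member with the highest mean signal, had a log2 difference of -0.08. Among 18 inflammatory target genes 2 rose and none fell, where 5.99% of all targets tested rose and 8.23% fell. These counts are not read as a result about the list. Acod1, the enzyme that makes itaconate in activated macrophages, rose by 0.37 (adjusted p = 0.00483), from 0.859 ± 0.044 to 1.12 ± 0.14. Tnf rose by 0.34 (adjusted p = 0.0389), from 0.746 ± 0.145 to 0.940 ± 0.117, a mean of 0.9925 times the negative probe under 5xFAD. None of the 18 was above background, so these rises rest on signal at the level of that probe. With scaling to the negative probe 1 of the 18 rose and 2 fell, and with scaling to the 75th percentile 5 rose and 0 fell.

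Over the 9 pathway lists, 16 of 113 genes tested passed in 5xFAD against WT, 5 higher and 11 lower, which is 14.2% and equal to the share over all targets. None passed in the other comparisons. The count was 0 with the number of targets above background as a covariate, 3 with the mean microglial level as a covariate and 8 without WT columns 1 and 3. Leaving out 5xFAD column 2, 3 or 5 gave 10, 8 or 9, and leaving out WT column 4 or 5xFAD column 4 gave 25 each. With scaling to the negative probe 1 rose and 26 fell, and with scaling to the 75th percentile 8 rose and 7 fell. Without the division by the column median all of these genes were higher.

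The 5 targets whose log2 levels followed that of Tlr4 most closely over the 16 columns were Utp18 (Pearson r 0.935), Tmem239 (0.935), Tspan32 (0.935), Wasl (0.933) and Wfdc17 (0.9205). All 5 were lowest under 5xFAD, for example Wasl at 1.48 against 1.92 under WT and 1.79 under 5xFAD-LynKO. They were chosen for following Tlr4 in these same columns, so this pattern comes from the choice and is not a separate result. Utp18 and Wasl were above background, and Tmem239, Tspan32 and Wfdc17 were not. Of the 10 genes, Traf6 was most like Tlr4 (r 0.775) and Irak1 least (r -0.617), and Cd14 and Ly96 had r of 0.19 and 0.29. The 16 columns fall into 3 genotypes that also differ in implied depth, so these correlations describe these columns only.

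**Figure D5:**
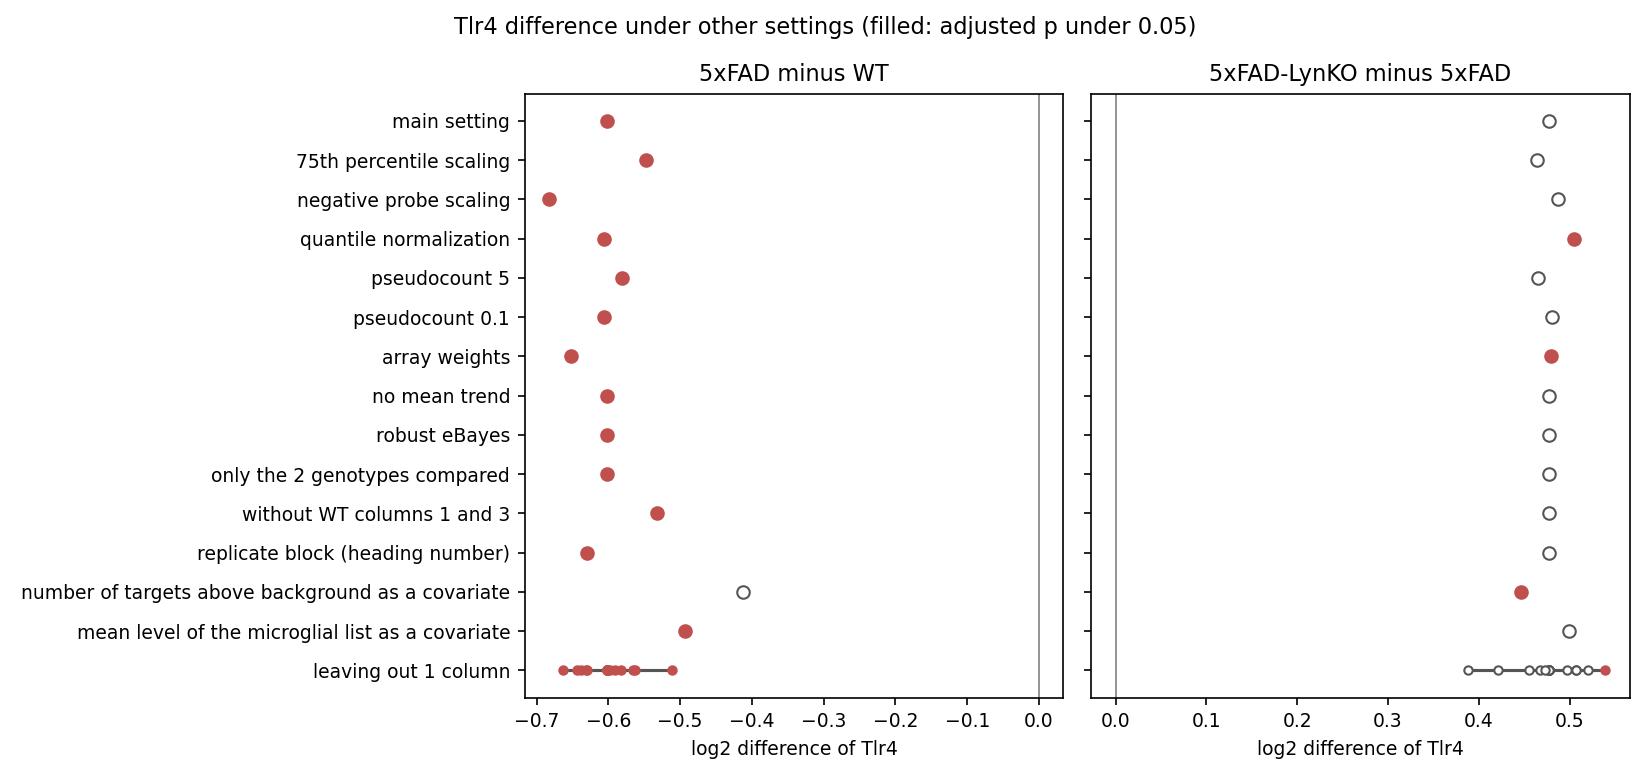
Log2 difference of Tlr4 (horizontal axis) in 5xFAD minus WT and in 5xFAD-LynKO minus 5xFAD under the settings named on the vertical axis, with filled points for an adjusted p under 0.05. In the left panel every setting shown kept the call except the covariate for targets above background (-0.41). Not shown are the values without rescaling, where the left difference turned to 0.27, and with the negative probe subtracted, which lie on another scale.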

How the data were processed

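GeoMx probe tags were measured in 48 titled segments of mouse brain, 24 for each marker, per the labels. The deposited table gives a signal of 0 or more in 16 columns headed by genotype and number. No source used here states its normalization. Of 19963 rows, 19959 in every column could be divided evenly by 1 step (tolerance 0.0001), and the quotients served as implied probe counts and as a measure of depth. All columns of values were used.

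Levels were log2(value + 1) minus the column median. The test was a linear model in limma 3.58.1 (R 4.3.3), with contrasts between genotypes and eBayes shrinkage that follows the mean level, for 19960 targets, leaving out Tmem119, Gfap and the negative probe, with all 16 columns in 1 fit, without covariate or low-value filter. A target was called at a p under 0.05 after Benjamini-Hochberg adjustment over all targets. Intervals are 95% and cover the spread between columns. The fit was run on simulated data with known changes and values drawn independently for each target and column. That simulation held no effect shared by a whole column, so it does not test for differences in quality between columns. Columns were not treated as paired by heading number. Of 15 same-numbered pairs, 3 had a correlation of deviations over 0.1, the highest 0.45 between WT and 5xFAD-LynKO column 2. Pairs with different numbers were not compared, so this cannot decide whether the numbers pair columns.

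The 10 genes and the context lists were chosen with earlier results of these data known. Named are the 10 genes, Lyn, from each list up to 4 passing genes with the smallest adjusted p and the gene with the highest mean signal that did not pass, and the 5 targets most like Tlr4. An item of the microglial list is not reported here by name. Alternatives were other scalings, background handling, pseudocounts, weights, blocks, covariates and leaving out columns. Promoters came from RefSeq on GRCm38.p6. No build is named for the probes, so no probe coordinates are given.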

Additional observations from a re-analysis of the deposited data

Results flagged for a closer look

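In 3 of 30 groups of columns (10 genes in 3 genotypes) 1 column lay far from the others by Dixon's criterion at 95%, where chance alone gives about 1 in 20. Traf6 in 5xFAD column 4 was 1.68 times the column median, against 1.105 to 1.27 in the other 4 columns. Without that column the log2 difference of Traf6 in 5xFAD against WT was -0.54 (limma adjusted p = 0.000928). Tirap in WT column 5 was 0.618, against 0.838 to 0.927 in the other 5 columns, and Ticam1 in WT column 2 was 1.16, against 0.951 to 1.02. WT column 5 had the fewest implied counts of all columns, with 34 for Tirap, and WT column 2 the most targets above background. Whether depth or signal over background has a part in these values was not tested.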

How the results depend on the processing

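Of the 10 genes, 9 were not above background, with Myd88 as low as 0.368 to 0.587 times the negative probe. Small changes may thus have been missed, and no source gives the animals behind the columns. The fall of Tlr4 in 5xFAD against WT passed in 16 of 16 fits that left out 1 column (-0.66 to -0.51) and in 13 of 14 settings other than no rescaling, and that of Traf6 in 16 of 16 (-0.54 to -0.39) and 13 of 15. The exceptions were both covariate fits for Traf6 and that on targets above background for Tlr4. The cause was not tested. With the heading number as a replicate block, 2615, 0 and 16 targets passed in the order 5xFAD against WT, 5xFAD-LynKO against 5xFAD and 5xFAD-LynKO against WT. Of the 10 genes, 2, 0 and 0 passed. Whether the numbers pair the columns is not known, so this is a check only. Leaving out 1 column gave 1396 to 3813, 0 to 129 and 1 to 15 targets, and 2 to 3, 0 to 1 and 0 of the 10 genes, in the same order. Without rescaling, 19825, 15004 and 19928 targets and 10, 8 and 10 of the genes passed, which the deposited medians bring about. The differences that turned sign there were, for 5xFAD against WT, 0.27 (Tlr4), 0.75 (Cd14), 0.80 (Ly96), 0.75 (Myd88), 0.85 (Ticam1) and 0.44 (Traf6). For 5xFAD-LynKO against 5xFAD they were 0.22 (Cd14), 0.24 (Ticam1), 0.24 (Ticam2) and 0.23 (Irak1), and for 5xFAD-LynKO against WT 1.04 (Tlr4), 0.96 (Cd14), 1.14 (Ly96), 1.12 (Myd88), 1.09 (Ticam1), 1.16 (Ticam2) and 1.02 (Traf6). With the negative probe subtracted 932, 136 and 3857 targets passed, with 3 of the genes (Tlr4, Traf6 and Cd14) in 5xFAD against WT, 1 (Tlr4) in 5xFAD-LynKO against 5xFAD and 4 in 5xFAD-LynKO against WT (Cd14, Ly96, Myd88 and Irak1, the last turned to -1.15). That setting puts values at or below the negative probe at a fixed floor before scaling. For genes under that probe, such as Myd88, its calls therefore reflect the column scaling. Quantile normalization gave 183 and 6 targets in the last 2 comparisons and 1 gene (Tlr4) in 5xFAD-LynKO against 5xFAD. Array weights gave 643 targets and 1 gene (Tlr4) there. Robust eBayes gave 2 and 3 targets in the last 2 comparisons, only the 2 genotypes compared 4 and 1, and only targets above background 596 in 5xFAD against WT and 4 in 5xFAD-LynKO against WT, with 1 gene (Traf6) in 5xFAD against WT because Tlr4 is not among them. Without WT columns 1 and 3, 1638, 1 and 7 targets passed. The number of targets above background as a covariate gave 0, 32 and 1 targets and 0, 1 (Tlr4) and 0 genes, and the mean microglial level 690, 2 and 1 targets and 1 gene (Tlr4) in 5xFAD against WT. Both covariates were chosen after seeing the data. The planned count models were not run, because the lowest value of a column was 9 to 66 steps and no value of 1 or a few steps shows that a step is 1 read.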
